A study of Mus musculus with 12 samples.

Results

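The 10 genes described here mark T cells. They were listed by name as Cd3d, Cd3e, Cd3g, Cd4, Cd8a, Lck, Cd5, Il7r, Foxp3 and Zap70, and they were followed across aortic arches of mice that do or do not develop atherosclerosis, and the question was whether Il7r moved together with the T cell receptor complex. Of the 10 genes, 9 had a probe, 1 each, among 19896 named genes, and all 9 had a value on every array, as did 19705 of all genes. Lck, the kinase that starts T cell receptor signalling, carried no probe name in the annotation used here and was not analysed here. Older gene symbols were updated before matching.

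Each of 12 microarrays held RNA pooled from the aortic arches of mice of 1 group, with 3 pools per group. The groups were Apoe-/- mice (C57BL/6 mice without apolipoprotein E, the ligand that clears remnant lipoproteins from blood) after 8 weeks (pools 1, 2 and 3), 16 weeks (pools 4, 5 and 6) or 24 weeks (pools 10, 11 and 12) on high-fat feed, and C57BL/6 wild type mice (pools 16, 17 and 18) fed in the same way for 16 weeks. Feeding began at an age of 8 weeks in every group, which ties age to diet time, and no wild type group matched the 8-week or 24-week groups. A pool held 3 mice, except pool 2, which held 2 mice, and the labels mark pools 3 and 6 with an asterisk that the sources used here do not explain. Every pool was labelled with Cy5 and measured against 1 common Apoe-/- reference in Cy3, mixed from all 3 diet times, and no dyes were swapped. The titles call the reference a vehicle pool of 21 mice and the Apoe-/- pools no drug, and say nothing of a drug for wild type; no drug or vehicle is named. Values are log2 ratios of a pool to that reference, and their size, and every fold, rests on the deposited logs having base 10, which the labels do not state. A value of 0 therefore means the level of the mixed Apoe-/- RNA, not absence, and no gene's level can be set against another gene's.

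T cells recognise antigen through a T cell receptor that signals only together with the CD3 chains, which Cd3d, Cd3e and Cd3g encode; Lck and then Zap70 relay that signal, Cd4 and Cd8a encode the coreceptors of helper and cytotoxic T cells, Cd5 encodes a receptor that dampens the signal, and Foxp3 encodes the transcription factor of regulatory T cells. Il7r encodes the alpha chain of the interleukin-7 receptor, which pairs with the common gamma chain (Il2rg) to keep naive and memory T cells alive and with Crlf2 to bind the cytokine TSLP. T cells enter the artery wall during atherosclerosis alongside far more numerous macrophages. In RNA of whole tissue, fewer cells of a type and less RNA per cell cannot be told apart.

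The promoters of Il7r, of Cd5 and of the 3 CD3 chains are shown because the results turn on how far these 5 genes moved apart. The 250 bases before each annotated start are from RefSeq, build GRCm38.p6, printed 5′ to 3′ on the gene's strand, with capitals marking the core ETS motif AGGAAG or its reverse complement CTTCCT. They lie at chr15:9529877-9530126 (minus strand), chr19:10738975-10739224 (minus strand), chr9:44980432-44980681 (minus strand), chr9:44981536-44981785 (plus strand) and chr9:45009612-45009861 (minus strand).
Il7r: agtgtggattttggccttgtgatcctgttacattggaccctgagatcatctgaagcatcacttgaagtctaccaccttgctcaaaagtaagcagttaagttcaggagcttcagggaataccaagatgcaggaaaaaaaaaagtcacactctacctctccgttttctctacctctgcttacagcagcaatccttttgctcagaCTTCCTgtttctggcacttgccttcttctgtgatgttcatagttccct
Cd5: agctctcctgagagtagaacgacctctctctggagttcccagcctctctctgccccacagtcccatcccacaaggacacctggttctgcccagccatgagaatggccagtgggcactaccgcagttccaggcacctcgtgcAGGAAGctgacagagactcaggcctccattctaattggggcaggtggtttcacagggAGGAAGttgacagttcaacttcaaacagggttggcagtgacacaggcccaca
Cd3g: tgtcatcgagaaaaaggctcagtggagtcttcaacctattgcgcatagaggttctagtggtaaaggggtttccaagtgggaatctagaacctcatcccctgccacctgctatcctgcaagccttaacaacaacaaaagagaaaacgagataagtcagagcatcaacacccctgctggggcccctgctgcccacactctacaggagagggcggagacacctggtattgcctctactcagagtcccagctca
Cd3d: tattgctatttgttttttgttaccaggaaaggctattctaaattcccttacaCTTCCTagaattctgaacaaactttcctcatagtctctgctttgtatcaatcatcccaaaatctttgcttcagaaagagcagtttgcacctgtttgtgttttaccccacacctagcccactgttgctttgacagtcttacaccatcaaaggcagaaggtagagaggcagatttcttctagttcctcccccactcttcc
Cd3e: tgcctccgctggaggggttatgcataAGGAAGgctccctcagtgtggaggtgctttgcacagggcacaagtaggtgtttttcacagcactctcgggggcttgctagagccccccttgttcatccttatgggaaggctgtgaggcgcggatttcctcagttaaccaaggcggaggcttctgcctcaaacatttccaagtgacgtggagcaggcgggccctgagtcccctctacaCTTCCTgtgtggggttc
Cd3g and Cd3d start from opposite strands of the same short stretch of chromosome 9. The ETS core stood 1 time in the Il7r promoter, at -48 from the start, and 2 times in that of Cd5, at -109 and -52. It stood at -198 in Cd3d and at -224 and -17 in Cd3e, and these letters were not in the Cd3g window. Of 32817 promoters of this length, 29.5% hold the motif on either strand. The RUNX core TGTGGT (held by 14.0%) and the TATA box TATAAA (held by 12.4%), searched on both strands, were in none of the 5. A match of letters is a description and not a binding site, and promoters were matched for 9 of the 10 genes (not Cd4).

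Apoe itself lay at log2 ratios of -0.20 to 0.23 in the 9 Apoe-/- pools and 2.01 to 2.85 in the 3 wild type pools. The direction of all ratios was settled from this gene, so the sign of its difference is no check of the labels. Pool 2 had the widest spread of ratios of the 12 arrays (its log2 interquartile range was 0.466, and that of the other 11 lay between 0.118 and 0.323). Pool 10 stood apart in Pth, the parathyroid hormone gene, at 2.58 against -3.18 or lower elsewhere. It was also highest in the thymocyte genes Rag1 (1.5) and Dntt (0.85), but not in the thymocyte genes Rag2 (-0.24) and Ptcra (-0.04). Smooth muscle genes, the defining genes of the artery wall, were measured for all 8 markers, but a ratio does not show that a tissue's markers are present. The deposited ratios carry no intensities, so whether a probe lay above background on an array is not known. Unless stated otherwise, p-values are from limma across 19705 genes with Benjamini-Hochberg adjustment, and called means an adjusted p under 0.05.

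Il7r rose with diet time across the whole series and was far above wild type at the end of it. Its log2 ratio was -2.73, -3.52 and -3.90 in the Apoe-/- pools at 8 weeks, -1.28, -0.35 and -1.22 at 16 weeks and 0.62, 1.10 and 0.53 at 24 weeks, against -4.55, -4.81 and -5.65 in the wild type pools. No pool overlapped another group, and the groups stood in the order 24, 16 and 8 weeks and then wild type, from high to low. The 12 values spanned 6.75 on the log2 scale, with an SD of 2.35, and only 6 of the other tested genes had a larger SD.

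Against wild type, Il7r was 3.07-fold higher in Apoe-/- arches at 8 weeks (95% confidence interval 1.77 to 5.33, adjusted p = 0.0433). At 16 weeks, the time of the wild type group, it was 16.5-fold higher (9.53 to 28.7, adjusted p = 4.47e-05). At 24 weeks it was 53.9-fold higher (31.0 to 93.6, adjusted p = 1.13e-06). Among Apoe-/- mice, Il7r was 5.39-fold higher at 16 than at 8 weeks (3.1 to 9.36, adjusted p = 0.00813) and 3.25-fold higher at 24 than at 16 weeks (1.87 to 5.65, adjusted p = 0.0231). The change over the whole time course, 24 against 8 weeks, was 17.5-fold (10.1 to 30.5, adjusted p = 3.17e-05). By the log2 difference of that last comparison, Il7r ranked 2 of all tested genes, counted from the highest.

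The call at 8 weeks was lost when any single pool other than 3 or 5 was left out, with adjusted p up to 0.126 (without pool 17), and also with array weights (0.0561), a probe-level fit (0.0545), the 2 groups fitted alone (0.166) and without pools 3 and 6 together (0.0577). Quantile normalization, which gives every array the same set of values, turned the 8-week difference to -0.12 (adjusted p = 0.952) and ended the call at 16 weeks (1.34 on the log2 scale, adjusted p = 0.149) but not at 24 weeks (4.18, adjusted p = 0.000137). The call from 16 to 24 weeks was lost without pool 4 (adjusted p = 0.112), 6 (0.0927), 10 (0.0518), 11 (0.112) or 12 (0.069). The call from 8 to 16 weeks was lost with quantile normalization (0.319), with arrays scaled to the same spread (0.339), with those 2 groups fitted alone (0.0858) and without pools 3 and 6 together (0.0538). Without pools 2 and 10 together, a setting chosen after the data were seen, the differences from wild type were 1.69, 4.05 and 5.82 at 8, 16 and 24 weeks, the first no longer called (adjusted p = 0.0903).

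**Figure D1:**
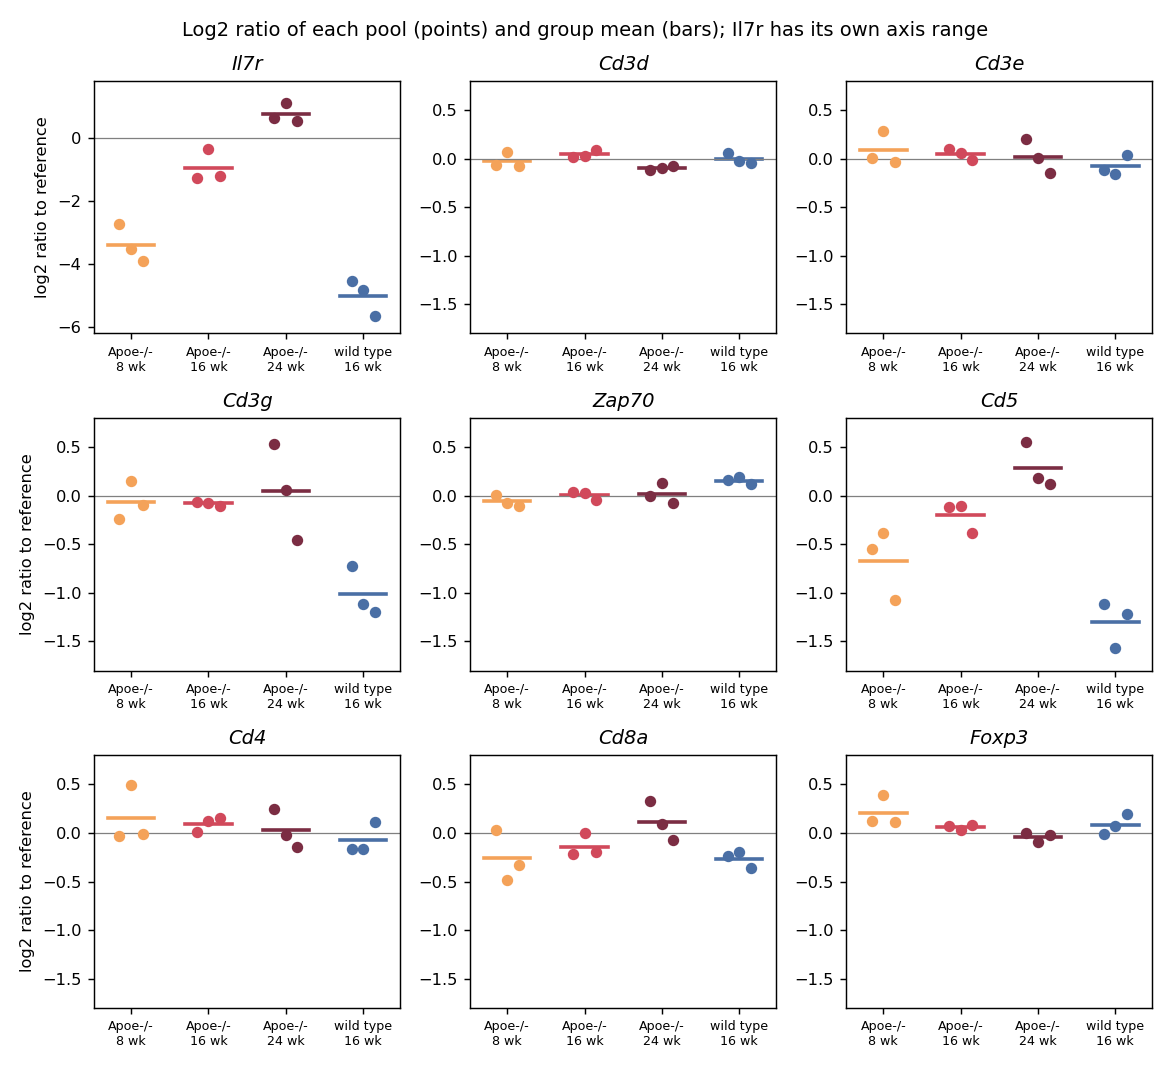
Log2 ratio to the common reference (vertical axis) of the 9 measured genes in each pool; points are pools, horizontal bars group means of 3 pools, and Il7r has a wider axis range than the other 8 panels. Il7r lies between -3.90 in the lowest and 1.10 in the highest Apoe-/- pool, Cd3g and Cd5 lie above wild type in all 9 Apoe-/- pools, and Cd3d stays between -0.12 and 0.09.

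The CD3 chains did not move as one. Cd3d had log2 ratios of -0.06, 0.07 and -0.07 at 8 weeks, 0.02, 0.03 and 0.09 at 16 weeks and -0.12, -0.10 and -0.08 at 24 weeks in Apoe-/- pools, against 0.06, -0.02 and -0.04 in wild type pools. Its 12 values had an SD of 0.07, and 4.12% of tested genes had a smaller one. At 24 weeks its difference from wild type was -0.10 (95% confidence interval -0.23 to 0.04, adjusted p = 0.294).

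Cd3e was close to the reference as well. Its values were 0.01, 0.29 and -0.03 at 8 weeks, 0.10, 0.06 and -0.01 at 16 weeks and 0.20, 0.01 and -0.15 at 24 weeks in Apoe-/- pools, against -0.12, -0.16 and 0.04 in wild type pools. Each Apoe-/- group overlapped wild type. Its differences from wild type were 0.17, 0.13 and 0.10 at 8, 16 and 24 weeks, with adjusted p of 0.38, 0.57 and 0.555. The confidence interval at 24 weeks, -0.14 to 0.34, lies far below the 4.95 that is the lower bound for Il7r there.

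Cd3g was about 2-fold above wild type at every diet time, without a further change over time. Its log2 ratio was -0.24, 0.15 and -0.09 at 8 weeks, -0.06, -0.07 and -0.10 at 16 weeks and 0.53, 0.06 and -0.45 at 24 weeks in Apoe-/- pools, against -0.72, -1.11 and -1.20 in wild type pools. All 9 Apoe-/- pools lay above the 3 wild type pools. The fold over wild type was 1.94 at 8 weeks (1.4 to 2.68, adjusted p = 0.0426), 1.91 at 16 weeks (1.38 to 2.64, adjusted p = 0.0166) and 2.08 at 24 weeks (1.5 to 2.88, adjusted p = 0.00393).

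Between diet times the log2 difference of Cd3g was -0.02 from 8 to 16 weeks (-0.49 to 0.45, adjusted p = 0.972) and 0.10 from 8 to 24 weeks (-0.36 to 0.57, adjusted p = 0.738). The 24-week pools were the most spread, with pool 10 the highest and pool 12 the lowest. The thymocyte gene Rag1 was at 1.5, -1.47 and -2.09 in pools 10, 11 and 12, in the same order as Cd3g. In these pools Dntt stood in that order too (0.85, -0.72 and -1.1). Rag2 stood in the reverse order (-0.24, 0.04 and 0.17) and Ptcra in neither. At 8 weeks (0.85, -0.47 and 0.63) and at 16 weeks (-2.19, -0.82 and 0.30) the Rag1 values stood in the reverse order of Cd3g. Among wild type pools, pool 18 was the highest in Rag1 (-1.17) and the lowest in Cd3g. Any part of thymocytes in the Cd3g values was not tested. The 8-week call of Cd3g was lost without any single pool other than 1, 10 or 12 (adjusted p up to 0.17, without pool 17), and the 16-week call without pool 4 (0.0601), 5 (0.0515), 17 (0.0701) or 18 (0.0532). Scaling the arrays to the same spread ended both calls (0.224 at 8 weeks and 0.119 at 16 weeks), as did leaving out pools 3 and 6 together (0.11 and 0.0653), and array weights (0.139), a probe-level fit (0.0539) and the 2 groups fitted alone (0.0822) ended the 8-week call. Quantile normalization lowered the 3 differences to 0.55, 0.54 and 0.55 on the log2 scale and left none called (adjusted p = 0.576, 0.422 and 0.271).

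Cd5 was the member whose course was most like that of Il7r, at a smaller size. Its log2 ratio was -0.55, -0.38 and -1.07 at 8 weeks, -0.11, -0.10 and -0.38 at 16 weeks and 0.55, 0.18 and 0.12 at 24 weeks in Apoe-/- pools, against -1.11, -1.57 and -1.22 in wild type pools. All 9 Apoe-/- pools lay above wild type, pool 3 by the least, and the 24-week pools lay above all others. At 8 weeks the difference of 0.63 did not pass (1.55-fold, 1.17 to 2.06, adjusted p = 0.1), but it did without pool 3 (0.83, adjusted p = 0.0379).

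Cd5 was 2.15-fold above wild type at 16 weeks (1.62 to 2.85, adjusted p = 0.003) and 3.0-fold above it at 24 weeks (2.26 to 3.98, adjusted p = 9.7e-05). Quantile normalization ended the 16-week call (0.51 on the log2 scale, adjusted p = 0.154) and kept the 24-week one (1.15, adjusted p = 0.00113). Over time it was 1.93-fold higher at 24 than at 8 weeks (1.46 to 2.57, adjusted p = 0.00385). The separate steps were 0.47 from 8 to 16 weeks (adjusted p = 0.254) and 0.48 from 16 to 24 weeks (adjusted p = 0.162), and neither passed.

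Zap70, the kinase that binds the phosphorylated CD3 chains, passed no comparison in this test. Its values were 0.01, -0.07 and -0.10 at 8 weeks, 0.04, 0.03 and -0.04 at 16 weeks and 0.00, 0.13 and -0.07 at 24 weeks in Apoe-/- pools, against 0.16, 0.19 and 0.12 in wild type pools, and 8 of 9 Apoe-/- pools lay below every wild type pool. The differences were -0.21, -0.15 and -0.14 on the log2 scale, with adjusted p of 0.13, 0.235 and 0.179.

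The coreceptor genes passed no comparison as fitted. Cd4 had values of -0.03, 0.49 and -0.01 at 8 weeks, 0.01, 0.12 and 0.15 at 16 weeks and 0.25, -0.02 and -0.14 at 24 weeks in Apoe-/- pools, against -0.16, -0.17 and 0.11 in wild type pools. The differences from wild type were 0.23, 0.17 and 0.10, with adjusted p of 0.39, 0.605 and 0.666. The highest pool was pool 2, which was also the highest for Cd3e and Foxp3.

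Cd8a had values of 0.03, -0.48 and -0.33 at 8 weeks, -0.22, 0.00 and -0.20 at 16 weeks and 0.33, 0.09 and -0.07 at 24 weeks in Apoe-/- pools, against -0.24, -0.20 and -0.36 in wild type pools. The 24-week pools lay above the wild type pools, by 0.38 on average (1.3-fold, 1.06 to 1.61), but the difference did not pass (adjusted p = 0.0699). It passed in 5 of 12 other settings, among them quantile normalization and array weights (lowest adjusted p = 0.0324), and in 2 of the 12 fits that left out a pool, without pool 1 (0.0298) or pool 2 (0.0369).

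Foxp3 had values of 0.12, 0.39 and 0.11 at 8 weeks, 0.07, 0.03 and 0.08 at 16 weeks and 0.00, -0.09 and -0.02 at 24 weeks in Apoe-/- pools, against -0.01, 0.07 and 0.20 in wild type pools. Its values at 24 weeks were below those at 8 weeks in all pools, by 0.24 on average, which did not pass (adjusted p = 0.0559). Against wild type the differences were 0.12, -0.03 and -0.12, with adjusted p of 0.451, 0.916 and 0.332.

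**Figure D2:**
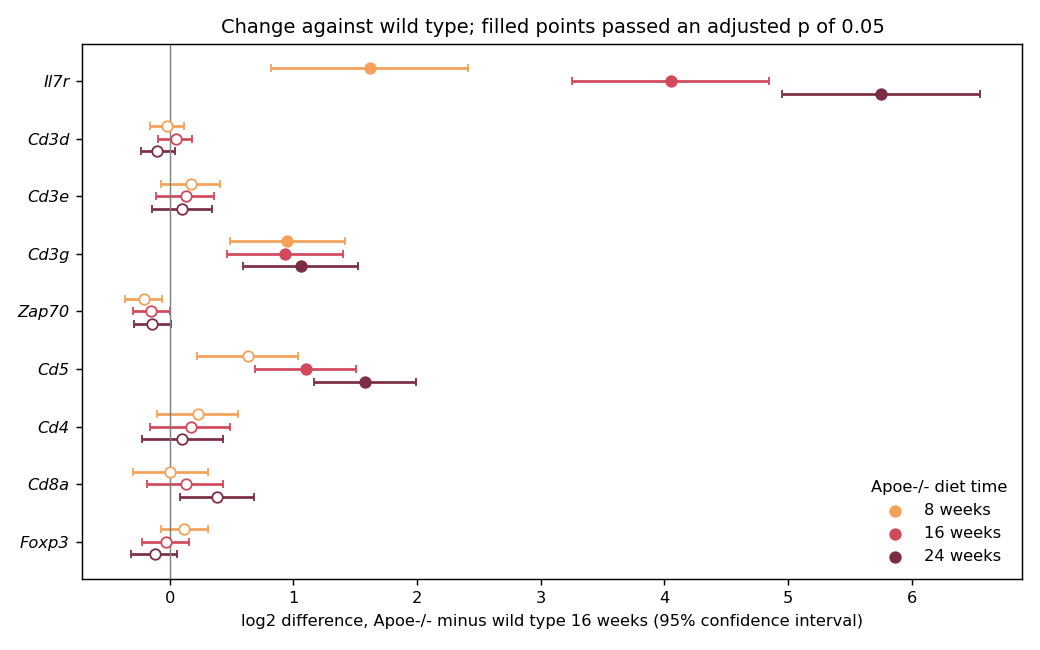
Log2 difference of each Apoe-/- group minus wild type (horizontal axis) with 95% confidence intervals for the 9 measured genes; filled points passed an adjusted p of 0.05, and the 3 comparisons share their wild type pools. Il7r at 16 and 24 weeks (4.05 and 5.75) lies beyond every interval of the other 8 genes, while its interval at 8 weeks overlaps those of Cd3g and Cd5.

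Counted together, 2 of 9 genes were called higher than wild type at 8 weeks (Cd3g and Il7r), where 1.76% of all tested genes were called higher. At 16 weeks 3 of 9 were called higher (Cd3g, Cd5 and Il7r), against 6.03% of all genes, and at 24 weeks the same 3, against 11.6%. For the mean of the Apoe-/- groups the same 3 were again called higher, against 8.22% of all genes. None of the 9 was called lower in these comparisons, where 0.736%, 4.07%, 11.3% and, for the mean, 6.63% of all genes were, and unadjusted p was under 0.05 for 4, 3 and 4 of 9 at 8, 16 and 24 weeks. The median difference of the 9 genes was 0.17, 0.13 and 0.10, beside -0.01, -0.03 and -0.04 over all genes.

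Between diet times the calls narrowed. Il7r alone of the 9 was called higher from 8 to 16 weeks (1.89% of all genes called higher) and from 16 to 24 weeks (3.98% of all genes), and Il7r and Cd5 from 8 to 24 weeks (14.7% of all genes). None was called lower (0.507%, 1.96% and 14.1% of all genes), and the median difference of the 9 genes was 0.06, 0.01 and 0.07. Il7r was called higher in all 3 successive steps, wild type to 8, 8 to 16 and 16 to 24 weeks, as were 79 of all tested genes (0.401%). These steps share groups with one another, and the comparisons with wild type share its 3 pools.

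Across all Apoe-/- pools against wild type, an exact two-sided permutation test over the 220 ways to choose 3 of 12 pools was run for each of the 9 genes, with no adjustment over them. Il7r, Cd3g and Cd5 each gave an exact permutation p of 0.00909, the smallest this test can give, with 9 of 9 Apoe-/- pools above every wild type pool and mean differences of 3.81, 0.98 and 1.11. The share of all tested genes separated in this way is not given here, so how rare it is cannot be read from these values. For the mean of the Apoe-/- groups, limma called 8.22% of all genes higher. For Zap70, the exact permutation test gave p = 0.0182 for a difference of -0.16. The exact permutation p was 0.645 for Cd3d, 0.145 for Cd3e, 0.127 for Cd4, 0.236 for Cd8a and 0.791 for Foxp3. With quantile-normalized values, Il7r differed by 1.8 with an exact permutation p of 0.155. A comparison of 3 against 3 pools cannot go below 0.10 in this test, so none was made.

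The log2 ratio of Il7r was then set against those of the CD3 chains within each pool, which cancels any offset of a whole array. Each gene's 0 is its own level in the reference, so only differences of this gap between groups can be read, not its sign. The log2 ratio of Il7r minus the mean of Cd3d, Cd3e and Cd3g was -2.63, -3.69 and -3.84 in the Apoe-/- pools at 8 weeks, -1.30, -0.36 and -1.21 at 16 weeks and 0.41, 1.11 and 0.76 at 24 weeks, against -4.29, -4.38 and -5.25 in the wild type pools. The group means were -3.39 ± 0.66, -0.96 ± 0.52 and 0.76 ± 0.35 in Apoe-/- arches at 8, 16 and 24 weeks and -4.64 ± 0.53 in wild type arches (SD, n = 3 pools each), and no groups overlapped. The gap therefore differed from wild type by 1.25, 3.68 and 5.40 on the log2 scale at 8, 16 and 24 weeks.

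The CD3 mean contributed little to this. It averaged 0.00, 0.01 and -0.01 at the 3 diet times and -0.36 in wild type, where Cd3g lowered it. Of its 3 genes, Cd3d and Cd3e varied little over the 12 pools (SD 0.07 and 0.13). Whether their probes lay above background is not known, so a flat mean does not show that the transcripts stayed level. From 8 to 24 weeks the gap widened by 4.15, close to the change of 4.13 in Il7r alone. No test is given for this score, since the genes were chosen with results known. Under quantile normalization the gap against wild type was -0.35 at 8 weeks, 1.07 at 16 weeks and 3.99 at 24 weeks.

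**Figure D3:**
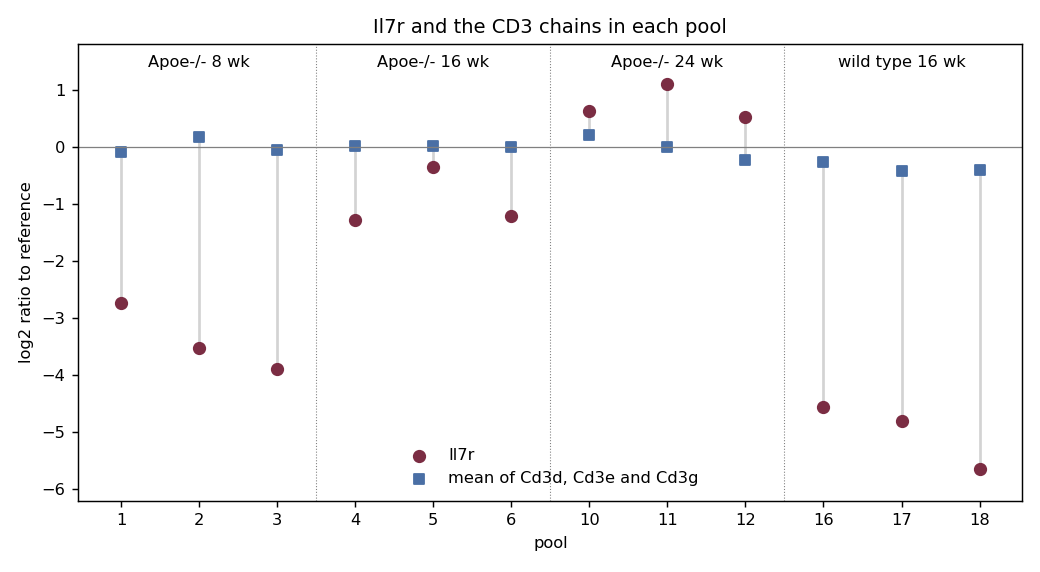
Log2 ratio to the reference (vertical axis) of Il7r (circles) and of the mean of Cd3d, Cd3e and Cd3g (squares) in each of the 12 pools, joined by a line. The CD3 mean stays between -0.43 and 0.20. The ratio of Il7r lies below it in all pools at 8 and 16 weeks and in wild type, and above it in the 3 pools at 24 weeks. Each gene's 0 is its own level in the reference, so this order does not compare amounts of transcript.

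As a description, with no test, the Pearson r of each gene with Il7r over the 12 pools was 0.93 for Cd5, 0.73 for Cd8a, 0.69 for Cd3g, 0.17 for Cd3e, 0.08 for Cd4, -0.31 for Zap70, -0.32 for Cd3d and -0.58 for Foxp3. The median over all genes was -0.12, and 97.2% of genes had a lower r with Il7r than Cd5. The pools fall into 4 groups, share 1 reference and differ in diet time, so such an r mostly restates the group means. After each group's mean was taken off, r with Il7r was 0.65 for Zap70, 0.63 for Cd8a, 0.26 for Cd5, 0.12 for Cd3g, 0.12 for Cd3d, -0.19 for Cd3e, -0.29 for Cd4 and -0.52 for Foxp3. Zap70 thus had the highest r within groups, where over all pools its r was negative. Cd3e was closest to Cd4 among the T cell genes (r = 0.92), and still at 0.90 after the group means were taken off. Both genes varied little (SD 0.13 and 0.19 over the 12 pools) and were highest in pool 2, the array with the widest spread of ratios. The part of pool 2 in this r was not tested.

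The 5 genes whose values were most like Il7r over the 12 pools were Ms4a7 (r = 0.994), Gpr176 (0.994), Galnt12 (0.993), Plau (0.992) and Col8a1 (0.991). Ms4a7 encodes a membrane protein of macrophages, Gpr176 an orphan G-protein-coupled receptor, Galnt12 an enzyme of mucin-type glycosylation, Plau the protease urokinase and Col8a1 a collagen chain of vessel walls. Most like Cd3e were Rab5c (0.95), Aup1 (0.93), Chmp4b (0.93), Cd4 (0.92) and Yif1b (0.92). Most like Cd3g were Nkg7 (0.93), Abi3 (0.91), Sh2d2a (0.90), Mmrn2 (0.90) and Tbc1d13 (0.89); Nkg7 encodes a protein of cytotoxic granules and Sh2d2a a T cell adaptor. None of the 5 genes named for Il7r was among its top 5 by Spearman's rho, over the Apoe-/- pools alone or after the group means were taken off.

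Other genes of T cell receptor signalling rose in part. Of 20 listed, 18 were measured, and 1, 5 and 7 were called higher than wild type at 8, 16 and 24 weeks (1.76%, 6.03% and 11.6% of all tested genes were), with 0 called lower and medians of 0.24, 0.18 and 0.33 on the log2 scale. The largest at 24 weeks were Lcp2, an adaptor below Zap70 that myeloid cells use as well (2.22 ± 0.20, SE, adjusted p = 1.48e-05), and Ptpn22, a phosphatase that restrains the receptor signal (1.65 ± 0.15, adjusted p = 1.49e-05). Next came Rhoh, a small GTPase needed for Zap70 function (1.25 ± 0.13, adjusted p = 5.13e-05), and Cd2, an adhesion receptor of T and NK cells (1.08 ± 0.32, adjusted p = 0.03). At 16 weeks Cd2 (1.29 ± 0.32, adjusted p = 0.024) was the largest, and at 8 weeks the kinase Txk (1.10 ± 0.22, adjusted p = 0.027) alone was called.

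Over diet time, Lcp2, Ptpn22 and Rhoh rose from 8 to 24 weeks (1.84, 1.16 and 1.00 on the log2 scale). They were the 3 of the 18 called, beside 14.7% of all genes called higher, and the median of the 18 was -0.01. From 8 to 16 weeks limma called 0 of 18, with 3 at an unadjusted p under 0.05. Lcp2 ran from -0.93, -1.53 and -1.66 at 8 weeks through -0.68, -0.35 and -0.74 at 16 weeks to 0.35, 0.71 and 0.35 at 24 weeks in Apoe-/- pools, against -1.46, -2.0 and -1.81 in wild type pools. Its 8-week pools overlapped wild type.

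Genes of effector and regulatory T cells gave a similar count. Of 22 listed, 20 were measured, and 1, 8 and 8 were called higher than wild type at 8, 16 and 24 weeks (1.76%, 6.03% and 11.6% of all tested genes were), with 0 lower and medians of 0.13, 0.35 and 0.34. Cxcr6, a chemokine receptor of effector T and NK cells, was 1.8 ± 0.22 above wild type at 16 weeks (SE, adjusted p = 0.000435) and 2.45 ± 0.22 at 24 weeks (adjusted p = 1.58e-05). Cxcr3, the receptor for interferon-induced chemokines, was 1.63 ± 0.15 above it at 24 weeks (adjusted p = 1.43e-05). Gzma, a granzyme of cytotoxic cells, was above wild type by 2.16, 2.47 and 1.95 at 8, 16 and 24 weeks (adjusted p = 0.0304, 0.00439 and 0.00812). Tnfrsf18, a costimulatory receptor high on regulatory T cells, was above it by 1.30 at 16 weeks and 1.16 at 24 weeks (adjusted p = 0.0182 and 0.0173). Il2ra, Ikzf2 and Ctla4, other genes of regulatory T cells on this list, were called in no comparison, nor was Foxp3.

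The time courses of these effector genes differed. Cxcr6 and Cxcr3 rose from 8 to 24 weeks by 1.84 and 1.28 (adjusted p = 0.000224 and 0.000153). They were the 2 of the 20 called, beside 14.7% of all genes called higher, and the median of the 20 was 0.14. Gzma was at 0.35, -1.37 and 0.55 at 8 weeks, 0.25, 0.37 and -0.16 at 16 weeks and 0.28, -0.48 and -0.90 at 24 weeks in Apoe-/- pools, against -2.28, -2.52 and -2.16 in wild type pools. All 9 Apoe-/- values lay above wild type, in no order of time, with pool 2 the lowest of the 9.

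Naive T cell and thymocyte genes, listed also because thymus lies close to the aortic arch, gave 1 call. Of 12 listed, 10 were measured, and 0, 1 and 0 were called higher at 8, 16 and 24 weeks by limma (1.76%, 6.03% and 11.6% of all tested genes were), with 4, 2 and 2 at an unadjusted p under 0.05. Their median differences from wild type were 0.33, 0.29 and 0.29 on the log2 scale. The 1 was Tox, a nuclear factor of T cell development (0.48 ± 0.13, SE, adjusted p = 0.0327). Their mean log2 ratio was spread within groups, lying between -0.18 and 0.24 at 8 weeks, between -0.37 and -0.07 at 16 weeks and between -0.52 and 0.39 at 24 weeks in Apoe-/- pools, and between -0.55 and -0.33 in wild type pools. The 3 pools at 8 weeks all lay above the wild type pools. The part of thymus tissue in the T cell gene values was not tested.

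Genes of the interleukin-7 axis rose in part. Of 12 listed genes, 11 were tested (not Jak1, which lacked a value), and 2, 5 and 6 were called higher than wild type at 8, 16 and 24 weeks (1.76%, 6.03% and 11.6% of all tested genes were), with 0 lower and medians of 0.15, 0.18 and 0.25. Il2rg, the common gamma chain that completes the interleukin-7 receptor, had log2 ratios of -0.67, -1.13 and -0.80 at 8 weeks, 0.20, 0.27 and -0.19 at 16 weeks and 0.29, 0.43 and -0.07 at 24 weeks in Apoe-/- pools, against -2.02, -2.51 and -2.11 in wild type pools. Every Apoe-/- pool lay above wild type, and the 16- and 24-week pools overlapped each other. The differences were 1.35, 2.31 and 2.43 (adjusted p = 0.00472, 2.12e-05 and 3.63e-06), and 0.96 from 8 to 16 weeks (adjusted p = 0.0201).

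Tslp, the epithelial and stromal cytokine that binds Il7r with Crlf2, had log2 ratios of -0.68, -0.86 and -0.84 at 8 weeks, -0.37, 0.15 and -0.23 at 16 weeks and 0.01, 0.26 and 0.25 at 24 weeks in Apoe-/- pools, against -1.14, -1.35 and -1.42 in wild type pools. It was 2.22-fold above wild type at 16 weeks and 2.79-fold at 24 weeks (adjusted p = 0.000255 and 1.35e-05). Crlf2 was above it by 0.63 and 0.93 on the log2 scale (adjusted p = 0.0099 and 0.000333). Il7, the interleukin-7 gene itself, was not called, with values from -0.10 to 0.06 in the 9 Apoe-/- pools and from -0.18 to -0.04 in wild type pools. Cish, a feedback inhibitor induced by STAT5, was above wild type by 1.11 at 16 weeks and 1.00 at 24 weeks (adjusted p = 0.00187 and 0.00152). The others called were Stat5a, a transcription factor that the receptor activates, at all 3 times (0.52 at 8 weeks, adjusted p = 0.013) and the kinase Jak3 at 24 weeks.

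Most macrophage markers rose alongside Il7r. All 20 listed were measured, and 9, 13 and 16 were called higher than wild type at 8, 16 and 24 weeks (1.76%, 6.03% and 11.6% of all tested genes were), with 0 lower and medians of 0.73, 1.65 and 2.80 on the log2 scale. From 8 to 24 weeks 15 were called higher and 1 lower (Itgam), beside 14.7% and 14.1% of all genes. The mean log2 ratio of the 20 lay between -1.38 and -1.19 at 8 weeks, between -0.55 and -0.16 at 16 weeks and between 0.27 and 0.45 at 24 weeks in Apoe-/- pools, and between -2.35 and -2.01 in wild type pools, in the same order of groups as Il7r.

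Single macrophage genes changed by sizes near that of Il7r. Mpeg1, a pore-forming protein of macrophages, was above wild type by 2.40, 4.47 and 6.01 at 8, 16 and 24 weeks (adjusted p = 0.00431, 1.23e-05 and 5.57e-07). Its pools read -2.24, -3.43 and -3.22 at 8 weeks, -1.23, -0.33 and -1.11 at 16 weeks and 0.64, 0.81 and 0.50 at 24 weeks in Apoe-/- arches, against -5.21, -5.76 and -5.11 in wild type arches. Ctss, a lysosomal protease, was above wild type by 2.39, 4.35 and 6.40, and Itgax, an integrin of macrophages and dendritic cells, by 2.11, 4.03 and 5.15. The part of macrophage content in the Il7r, Cd5, Lcp2 and Il2rg values was not tested.

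Likeness to Il7r was set out by list, again as a description. The median r with Il7r over the 12 pools was 0.95 over the 20 macrophage markers and 0.13 over the other 8 T cell genes. Single macrophage markers ran from -0.59 to 0.99 and the T cell genes from -0.58 to 0.93. The macrophage markers Cx3cr1 (-0.59) and Itgam (-0.56) went the other way, and Mertk (0.06) and Cd163 (0.34) were little like Il7r. It was 0.39 over the T cell receptor signalling genes, 0.61 over the effector and regulatory genes, 0.08 over the naive and thymocyte genes and 0.54 over the interleukin-7 axis. It was -0.88 over the 8 smooth muscle markers, of which 0, 5 and 7 were called lower than wild type at 8, 16 and 24 weeks (0.736%, 4.07% and 11.3% of all genes were).

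**Figure D4:**
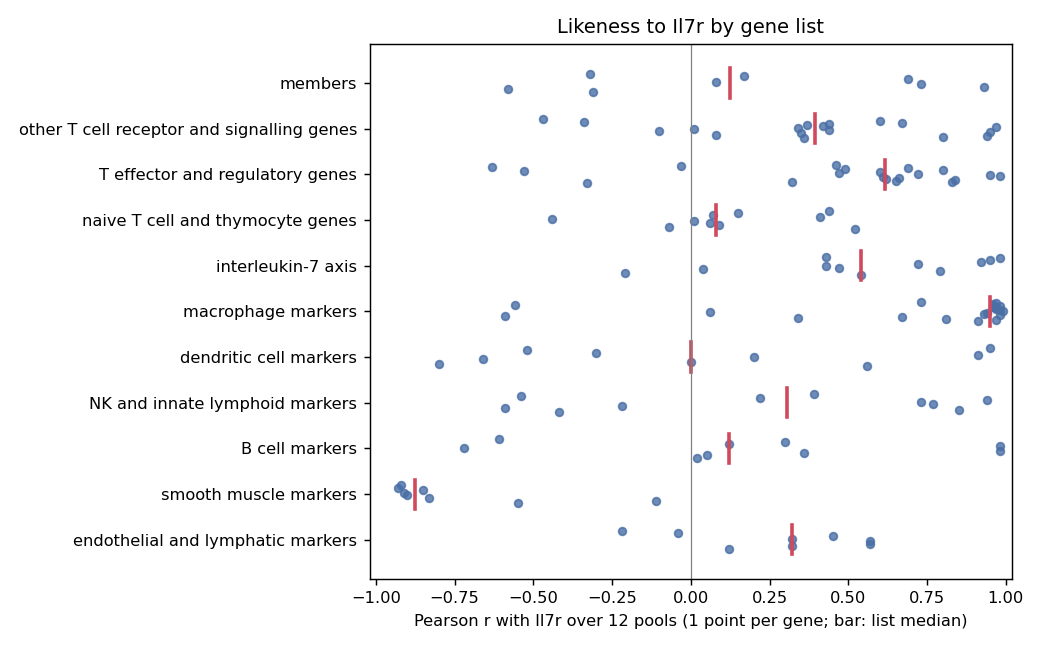
Pearson r with Il7r over the 12 pools (horizontal axis) for each measured gene of 11 lists, 1 point per gene, with the list median as a bar; Il7r itself is left out of the top list of 8 genes. The median lies at 0.95 for macrophage markers, 0.13 for the T cell genes and -0.88 for smooth muscle markers, beside -0.12 over all genes.

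Markers of other lymphoid cells were mixed. Of 12 NK and innate lymphoid genes 10 were measured, and 1, 3 and 4 were called higher than wild type at 8, 16 and 24 weeks (1.76%, 6.03% and 11.6% of all tested genes were). Klrd1, an NK cell receptor chain, was the largest of them at 16 and 24 weeks (2.74 and 3.46, adjusted p = 0.00209 and 0.000161). Of 10 B cell genes 9 were measured, and 1, 2 and 2 were called higher, beside the same shares of all genes. These were Cd22 (1.75, 3.67 and 4.43 above wild type) and, at 16 and 24 weeks, Blnk (1.93 and 3.52), while the antigen receptor gene Cd79a was between -0.16 and 0.30 in the 9 Apoe-/- pools and between -0.06 and 0.25 in wild type pools. The B cell factor Pax5 was called lower at 24 weeks (-0.29, adjusted p = 0.0481), as were 11.3% of all genes.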

How the data were processed

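RNA of pooled mouse aortic arches was measured on 12 2-colour arrays. Per the labels, each pool carried Cy5 and the common Apoe-/- reference Cy3. RNA was purified on columns with DNase treatment and amplified with aminoallyl labelling, per the labels' protocols. The authors deposited 1 log10 ratio per probe for 39556 probes; the sources used here state no scanner, normalization or filter. Direction was settled from the values, since Apoe lay far above the reference on wild type arrays and near it on Apoe-/- arrays. The base was taken as 10 because the lowest value was exactly -2, at 2 probes, and because, by its Pth value, pool 10 (if part of the reference) would be 15.7% of it in base 10 and 43.6% in base 2. That the pools were part of the reference is an assumption. Columns were centred near 0 (medians -0.0025 to 0.0181), by an unknown method.

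Multiplication by 3.322 turned them into log2 ratios. Of 39556 probes, 23283 had 1 gene symbol, 0 several and 16273 none. Of 20551 symbols, 14510 were current, 5952 older ones were replaced through a mouse gene table, 78 were ambiguous and 11 not found, and both were kept. Probes of a gene were averaged. Groups came from the labels. The test was limma (version 3.58.1, R 4.3.3; lmFit and eBayes with 8 residual and 2.95 prior degrees of freedom, 1 mean per group, 12 arrays) over 19705 genes with Benjamini-Hochberg adjustment at 0.05, and tested on simulated data. The number of arrays limits the precision. Alternatives covered array scaling, weights, probe handling, gene filters, groups fitted and leaving out pools. All 9 measured members are named. From each other list, named genes came from the 4 called with the largest difference per comparison, and likeness was read from the 5 highest correlations. The members and lists were chosen with earlier results of these data known. Genes named outside that rule (Il7, Jak3, Rag1, Rag2, Dntt, Ptcra, Pth, Cd79a, Itgam, Cx3cr1, Mertk, Cd163, Il2ra, Ikzf2, Ctla4) were chosen after their values were seen.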

Additional observations from a re-analysis of the deposited data

Results flagged for a closer look

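Effects against the shared wild type pools differed between diet times in limma (adjusted p under 0.05). With wild type shared, these are the same comparisons between Apoe-/- groups as given above. Il7r differed by 2.43 on the log2 scale between 16 and 8 weeks (higher in 3 of 3 pools), by 1.70 between 24 and 16 weeks and by 4.13 between 24 and 8 weeks. Cd5 differed by 0.95 between 24 and 8 weeks.

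Genes named from the other lists, partly because they were called in this comparison, also differed between 24 and 8 weeks. Of all tested genes, 14.7% were called higher and 14.1% lower there. Among T cell genes the log2 differences were 1.84 for Lcp2, 1.16 for Ptpn22, 1.00 for Rhoh, 1.84 for Cxcr6 and 1.28 for Cxcr3. In the interleukin-7 axis they were 1.08 for Il2rg, 0.97 for Tslp and 0.68 for Crlf2. Among macrophage markers they were 4.02 for Ctss, 3.61 for Mpeg1, 3.10 for Adgre1, 3.05 for Itgax, 2.91 for Trem2, 2.36 for Lyz1 and 1.79 for Fcgr1. Among lymphoid markers they were 2.91 for Blnk, 2.68 for Cd22, 1.72 for Klrd1, 1.21 for Kit, -0.30 for Klrb1c and -0.32 for Pax5.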

How the results depend on the processing

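No paired analysis was possible because no 2 groups share pool numbers. For the mean of the Apoe-/- groups, the count of 3 calls stayed within 1.5 times under every alternative tried. At 8 weeks 2 of the 9 genes (Cd3g and Il7r) were called against wild type. The count was 0 with quantile normalization, array weights, a probe-level fit or the compared groups alone. It was 1 with arrays centred and scaled (Il7r) and 1 without pools 2 and 10 (Cd3g). Without pools 3 and 6 both calls were lost and Cd5 was newly called (0.83, adjusted p = 0.0445), again a count of 1. When single pools were left out, the count was 0 to 2. At 16 weeks the 3 calls became 0 with quantile normalization. At 24 weeks they became 5 with array weights, which added Zap70 and Cd8a. From 8 to 16 weeks the 1 call became 0 with quantile normalization, centring and scaling, the compared groups alone or without pools 3 and 6. From 16 to 24 weeks the 1 call became 3 with quantile normalization, 2 with centring and scaling, array weights or the compared groups alone, 0 without pools 3 and 6, and 0 to 1 when single pools were left out. From 8 to 24 weeks the 2 calls ranged from 2 to 4 over single pools left out (4 without pool 1). With quantile normalization Il7r differed from wild type by -0.12 at 8 weeks, and Il7r minus the CD3 mean by -0.35, 1.07 and 3.99 at 8, 16 and 24 weeks, by 1.42 from 8 to 16 weeks and by 2.92 from 16 to 24 weeks. The difference of 9 against 3 pools fell to 1.8 (exact permutation p = 0.155), against 0.0121 to 0.0364 when single pools were left out. The cause of these shifts was not tested. The call of Il7r at 24 weeks against wild type and against 8 weeks held in all 12 other settings and all 12 single pools left out. The alternatives that named Lck ran without it, as the mean of 4 and the median of 7 genes. Signal over background is not known for any probe.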
